A study of Mus musculus with 20 samples.

Results

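The abundance of 10 transcripts that mark neural progenitors and radial glia was followed across all 20 libraries of a study of subcerebral projection neurons, the cortical neurons whose axons reach the brainstem and the spinal cord. The 10 genes were taken by name, without a cut on level, from a table of 55487 genes. The choice was made with earlier results of these data known. The genes are Sox2, Pax6, Sox9, Hes1, Hes5, Id3, Nes, Vim, Mki67 and Top2a, and all 10 were found. The libraries came from mice at postnatal day 1, with 5 libraries in each of 4 groups. WT growth cones, the tips of growing axons, came from brainstem and spinal cord, as did growth cones of the genotype labelled Bcl11b KO, which the series describes as null for Bcl11b. WT somata and somata labelled Bcl11b KO came from cortex. Every group carries the label subcerebral projection neurons. How somata and growth cones were isolated, how the Bcl11b allele was made, and how many animals went into a library are not given in the sources used here. P-values therefore measure the spread between these libraries, which may be technical. The libraries are named by the experiment number in their titles: 7 to 11 for growth cones of both genotypes, 12, 14, 22, 25 and 26 for WT somata, and 14, 15, 22, 25 and 26 for somata labelled KO.

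Radial glia are the stem cells of the embryonic cortex. They line the ventricle, divide, and give rise to neurons and later to astrocytes. Sox2, Pax6 and Sox9 encode transcription factors of these cells. Notch signalling through the DNA-binding protein RBPJ switches on the repressors Hes1 and Hes5, which hold back neuronal differentiation, and bone morphogenetic protein (BMP) signalling induces Id3, an inhibitor of proneural factors. Nes and Vim encode the intermediate filaments nestin and vimentin, and Mki67 and Top2a are transcribed in dividing cells. Subcerebral projection neurons have left the cell cycle. Several of these genes stay active in astrocytes, and Vim also in vessel and meningeal cells.

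Promoters are shown for the genes whose control is best known within the set: Hes5, as a direct Notch target, and Top2a and Mki67, as cell cycle genes. The sequences are the 250 bases before the RefSeq start on GRCm38.p6, written 5′ to 3′ on the gene's own strand. RefSeq windows were at hand for 8 of the 10 genes, without Hes1 and Sox9. The Hes5 window is chr4:154960673-154960922 on the plus strand, and its capitals mark the RBPJ core TGGGAA on either strand. The Top2a window is chr11:99024190-99024439 on the minus strand, and the Mki67 window is chr7:135716380-135716629 on the minus strand. In both, the capitals mark the CCAAT box CCAAT on either strand, an element common in promoters of cell cycle genes.
Hes5: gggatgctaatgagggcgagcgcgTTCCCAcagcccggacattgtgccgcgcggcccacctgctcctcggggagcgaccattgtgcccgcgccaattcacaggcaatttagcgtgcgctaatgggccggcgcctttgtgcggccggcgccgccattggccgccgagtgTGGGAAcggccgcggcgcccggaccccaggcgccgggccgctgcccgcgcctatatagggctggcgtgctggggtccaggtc
Top2a: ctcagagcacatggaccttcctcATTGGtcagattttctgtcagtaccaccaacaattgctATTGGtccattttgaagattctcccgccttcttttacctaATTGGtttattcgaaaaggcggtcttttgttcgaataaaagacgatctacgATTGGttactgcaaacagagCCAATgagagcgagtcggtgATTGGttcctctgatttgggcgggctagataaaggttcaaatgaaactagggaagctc
Mki67: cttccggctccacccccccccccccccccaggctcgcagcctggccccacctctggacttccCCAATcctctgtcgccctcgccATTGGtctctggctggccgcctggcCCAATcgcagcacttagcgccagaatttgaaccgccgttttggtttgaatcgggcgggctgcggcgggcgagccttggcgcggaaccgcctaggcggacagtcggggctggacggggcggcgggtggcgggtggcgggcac
The Hes5 window held 2 RBPJ cores, which began 226 and 82 bases before the start and lay on opposite strands. Of all 32851 RefSeq mouse windows of this length, 21.6% held at least 1 such core. The Top2a window held 6 CCAAT boxes and the Mki67 window held 3, and 33.8% of all windows held at least 1. Of the 8 windows, 6 held a CCAAT box, those of Sox2, Pax6, Hes5 and Vim besides these. The N box CACNAG, bound by Hes repressors, and the GC-rich SMAD element GGCGCC were searched on both strands too. The N box was found in the Vim window alone and in 36.7% of all windows, and the SMAD element in the Hes5 window alone, 4 times, and in 9.59% of all windows. No matches of different motifs overlapped in these 3 windows. The Mki67 window ends 18 bases before the start of the counted gene. A match describes the letters only. No protein binding was measured.

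Total counts per library ran from 18962308 to 51205154, and some soma levels rested on few reads. In at least 1 soma library Pax6, Sox9, Hes1, Hes5, Nes, Mki67 and Top2a had 3 counts or fewer, down to 0 for Mki67, while Vim had 399 or more counts in every soma library. Levels are given below as CPM, the count scaled to the library total, with SD over n = 5 libraries. Counts of Bcl11b, the targeted gene, went against the labels of the somata: the mean was 655 ± 122 CPM in the WT and 1082 ± 53.6 CPM in the libraries labelled KO, a log2 fold change of 0.71 ± 0.12 (SE, edgeR, FDR 0.0153). The range was 493.5 to 780 CPM in WT somata and 1023 to 1151 CPM in somata labelled KO. Growth cones had 107.7 ± 20.2 CPM in WT and 108.2 ± 35.3 CPM in the libraries labelled KO. The deleted stretch of the gene is not given in the sources used here, so a count over the whole gene may hold transcript from outside it. The name "labelled KO" is used for this reason. Markers of subcerebral projection neurons, a list of 10 genes, were present in all 20 libraries, with summed levels of 2111 to 2799 CPM in somata and 817 to 1155 CPM in growth cones. This list includes Bcl11b itself, so the sums hold the Bcl11b levels given above.

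The 10 transcripts were scarce in somata and were much more abundant in growth cone libraries. Their summed level was 599.9 ± 82.9 CPM in WT growth cones and 613.6 ± 130.3 CPM in growth cones labelled KO. Somata held far less, 44.1 ± 16.4 CPM in WT and 50.8 ± 23.6 CPM in the libraries labelled KO. The lowest growth cone library, 451 CPM, stood well above the highest soma library, 91.7 CPM. Among the 10 WT libraries, 8 of the 10 genes were higher in growth cones than in somata at a false discovery rate (FDR) of 0.05 by edgeR's quasi-likelihood test, and 0 were lower. Of all 15128 genes tested in that comparison, 23.1% were called higher and 19.7% lower. Among the libraries labelled KO, 10 of 10 were higher and 0 lower, against 21.6% and 17.0% of 15410 genes tested. Since the members were chosen with earlier results of these data known, the contrast with all genes is a description. Mki67 did not pass the filter on low counts among soma libraries alone. It entered this test through its growth cone counts, so its call is weak support. The same holds for Top2a in the libraries labelled KO and for Pax6 in WT. Each had 3 counts or fewer in 3 of those 5 soma libraries. The compartments did not overlap, with growth cones higher, for 8 members in WT, against 22.1% of genes tested, and for 9 members in the libraries labelled KO, against 20%. The median log2 fold change over the 10 genes was 3.52 in WT and 3.85 in the libraries labelled KO. Over all genes tested the median was 0.07 and 0.11. With upper-quartile scaling these medians over all genes were 0.28 and 0.31, a shift small beside the members' values.

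**Figure D1:**
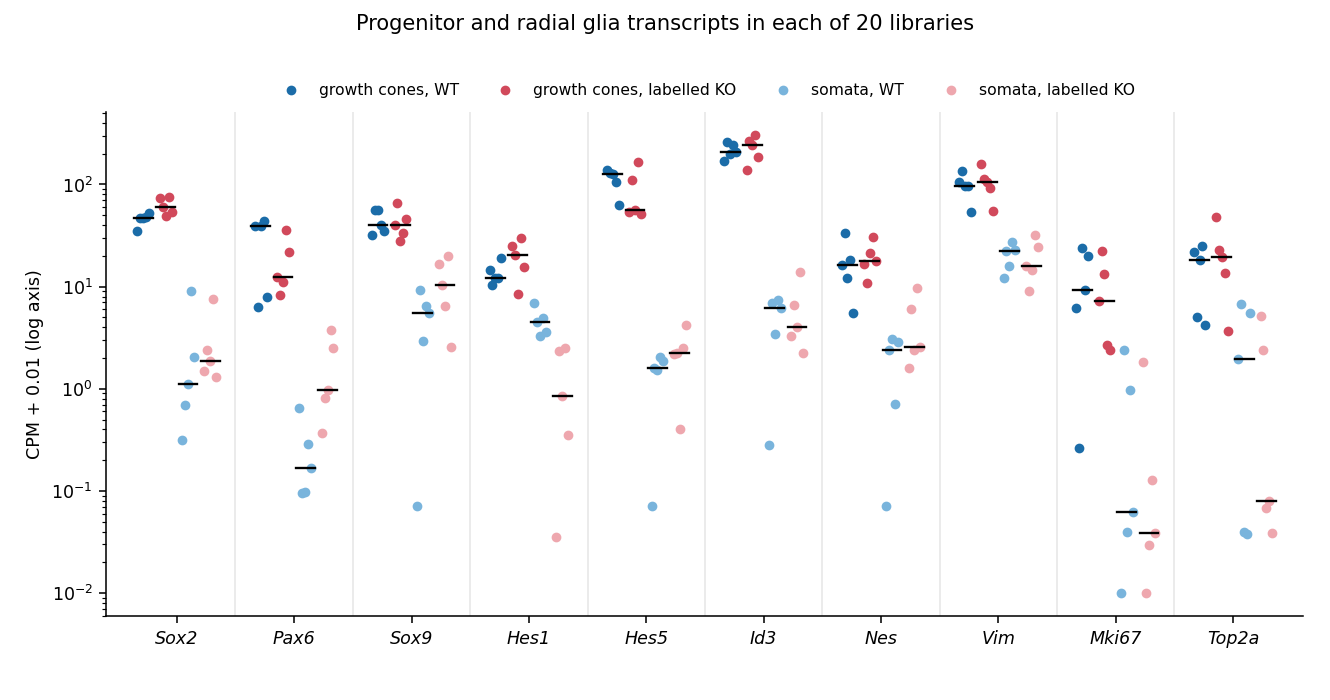
Level of each of the 10 transcripts in each of 20 libraries, as CPM plus 0.01 on a log axis, 1 point per library, coloured by group, and a black bar at the group median. For 8 genes the WT growth cone points lie above every WT soma point, and the Mki67 points span the widest ratio of highest to lowest in WT growth cones, from 0.255 to 23.8 CPM.

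Compartment differs along with tissue, since growth cones came from brainstem and spinal cord and somata from cortex. It differs too along with experiment number, which growth cones and somata never share, and with RNA input, which was 0.19 to 3.1 ng for growth cones and 1.8 to 3.1 ng for somata. These cannot be told apart from compartment. In bulk libraries, more cells of a type and more RNA per cell cannot be told apart either. Markers of several other cell types were higher in growth cones too, and their values follow the account of the members.

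Sox2 (ENSMUSG00000074637.7, chr3:34650405-34652461, plus strand), which maintains the progenitor state, was the steadiest of the 3 transcription factor genes in growth cones. WT growth cones of experiments 7 to 11 had 34.95, 46.9, 46.7, 47.8 and 52.8 CPM, and those labelled KO had 73.6, 60.7, 49.35, 74.8 and 54.1 CPM. WT somata had 0.302, 0.691, 1.11, 9.12 and 2.06 CPM, and somata labelled KO had 1.49, 2.41, 1.86, 7.57 and 1.31 CPM. Every growth cone library was above every soma library, and in somata of both genotypes experiment 25 was the highest. The log2 fold change of growth cones over somata was 3.94 ± 0.82 in WT (SE, edgeR FDR 0.00214) and 4.32 ± 0.54 in the libraries labelled KO (edgeR FDR 8.25e-05).

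Pax6 (ENSMUSG00000027168.21, chr2:105668900-105697364, plus strand), a patterning factor of dorsal progenitors, was nearly absent from WT somata. Its level there was 0.635, 0.0864, 0.088, 0.277 and 0.158 CPM, with 3 counts or fewer in 3 of the 5 libraries. Somata labelled KO had 0.3597, 0.811, 0.957, 3.71 and 2.52 CPM. Growth cones varied between libraries. WT growth cones had 39.2, 6.34, 38.8, 43.5 and 7.84 CPM, and those labelled KO had 12.3, 8.201, 11.1, 35.4 and 21.8 CPM. In WT, experiments 8 and 11 lay far below the other 3, and the libraries labelled KO were graded. Both compartment differences exceeded the spread: the log2 fold change was 6.57 ± 0.90 in WT (edgeR FDR 0.000114) and 3.28 ± 0.77 in the libraries labelled KO (edgeR FDR 0.00528), with no overlap between compartments. In WT, Pax6 passed the filter on low counts through its growth cone counts.

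Sox9 (ENSMUSG00000000567.5, chr11:112782224-112787760, plus strand) drives gliogenesis and stays on in astrocytes. WT growth cones had 32.2, 55.7, 56.9, 39.7 and 35.1 CPM, and those labelled KO had 40.1, 65.5, 28.1, 33.3 and 45.9 CPM. WT somata had 0.0604, 9.33, 2.93, 6.52 and 5.49 CPM, and somata labelled KO had 16.6, 10.4, 6.48, 20.01 and 2.55 CPM. The lowest value, in WT soma 12, rested on 2 counts. Growth cones did not overlap somata in either genotype. The log2 fold change was 3.04 ± 0.80 in WT (edgeR FDR 0.00862) and 1.84 ± 0.51 in the libraries labelled KO (edgeR FDR 0.0132).

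Both Notch effector genes were higher in growth cones. Hes5 (ENSMUSG00000048001.7, chr4:154960923-154962371, plus strand), whose promoter is printed above, had 138, 128, 126, 106 and 62.9 CPM in WT growth cones. Growth cones labelled KO had 53.99, 111, 56.9, 165 and 51.2 CPM. WT somata had 0.0604, 1.58, 1.52, 2.05 and 1.85 CPM, and somata labelled KO had 2.18, 2.23, 0.391, 2.52 and 4.23 CPM. The groups did not overlap between compartments, with log2 fold changes of 6.17 ± 0.66 in WT (edgeR FDR 1.85e-05) and 5.10 ± 0.60 in the libraries labelled KO (edgeR FDR 5.89e-05). An antisense gene, Gm20421, shares 433 exon bases with Hes5, or 31.8% of its length. Use of strand in counting is not given in the sources used here. Gm20421 itself had at most 28 counts in any library.

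Hes1 (ENSMUSG00000022528.8, chr16:30064384-30067796, plus strand) had 14.4, 10.3, 12.2, 12.2 and 18.9 CPM in WT growth cones. Growth cones labelled KO had 24.7, 20.4, 8.48, 30.1 and 15.7 CPM. WT somata had 6.95, 4.49, 3.25, 4.94 and 3.59 CPM, the narrowest spread but that of Vim among the 10 genes in this group. Somata labelled KO had 0.0257, 2.32, 0.84, 2.52 and 0.341 CPM. Growth cones were above somata in each genotype, by 1.41 ± 0.47 on the log2 scale in WT (edgeR FDR 0.0296) and by 3.92 ± 0.97 in the libraries labelled KO (edgeR FDR 0.00729). The WT call was lost in 6 of 18 alternative analyses, 4 of which left out 1 library (WT growth cone 11, or WT soma 14, 22 or 26), with the highest FDR 0.122 when all 20 libraries were fitted together.

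Id3 (ENSMUSG00000007872.3, chr4:136143497-136145755, plus strand), the BMP target, was the most abundant of the 10 transcripts in growth cones. WT growth cones had 171.6, 262, 198, 241 and 206 CPM, and those labelled KO had 139.8, 266, 243, 306 and 184 CPM. WT somata had 0.272, 6.94, 3.46, 7.38 and 6.22 CPM, and somata labelled KO had 3.29, 6.63, 4.004, 13.85 and 2.21 CPM. The highest soma library was far below the lowest growth cone library. The log2 fold change was 5.33 ± 0.63 in WT (edgeR FDR 4e-05) and 5.13 ± 0.50 in the libraries labelled KO (edgeR FDR 1.34e-05).

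The intermediate filament genes were higher in growth cones in both genotypes. Vim (ENSMUSG00000026728.9, chr2:13573927-13582826, plus strand) had the highest mean level of the 10 in somata, with a range of 12.2 to 27.4 CPM in WT and 8.99 to 31.7 CPM in those labelled KO. Its growth cone range was 53.8 to 134 CPM in WT and 54.5 to 159 CPM in the libraries labelled KO. The log2 fold change was 2.14 ± 0.31 in WT (edgeR FDR 0.000155) and 2.37 ± 0.39 in the libraries labelled KO (edgeR FDR 0.000576). Nes (ENSMUSG00000004891.16, chr3:87971078-87980451, plus strand) ran from 5.46 to 33.7 CPM in WT growth cones and, in growth cones labelled KO, from 10.8 to 30.7 CPM. In somata it ran from 0.0604 to 3.08 CPM in WT and from 1.59 to 9.59 CPM in the libraries labelled KO. Its log2 fold change was 3.10 ± 0.90 in WT (edgeR FDR 0.0152) and 2.03 ± 0.60 in the libraries labelled KO (edgeR FDR 0.0187). Without soma 26 labelled KO, the second Nes call was lost (edgeR FDR 0.0516).

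The proliferation genes varied widely between libraries of a group. Mki67 (ENSMUSG00000031004.8, chr7:135689784-135716361, minus strand) encodes Ki-67, the standard marker of cycling cells. WT growth cones had 6.12, 0.255, 23.8, 9.25 and 20.1 CPM, and those labelled KO had 7.29, 22.3, 13.4, 2.67 and 2.401 CPM. In WT somata the levels were 0, 2.39, 0.0293, 0.971 and 0.0527 CPM, and in somata labelled KO they were 1.82, 0, 0.0195, 0.118 and 0.0284 CPM. A count of 0 allows up to 0.0907 CPM in WT soma 12 and up to 0.0676 CPM in soma 15 labelled KO, taking 3 counts as the limit. In WT the compartments overlapped and the log2 fold change of 3.97 ± 1.51 did not pass (edgeR FDR 0.0510), although it passed in 8 of 18 alternative analyses. In the libraries labelled KO the log2 fold change of 4.52 ± 1.55 passed (edgeR FDR 0.0372), and the compartments did not overlap. That call was lost in 8 of 18 alternatives, with the highest FDR 0.083 without soma 25 labelled KO.

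Top2a (ENSMUSG00000020914.17, chr11:98992943-99024189, minus strand) encodes the topoisomerase that untangles chromosomes in dividing cells. WT growth cones had 21.7, 5.03, 18.1, 25.2 and 4.195 CPM, and those labelled KO had 48.4, 22.8, 19.5, 13.5 and 3.69 CPM. WT somata had 1.93, 6.82, 0.0293, 0.0277 and 5.54 CPM, and somata labelled KO had 5.17, 2.41, 0.0586, 0.0705 and 0.0284 CPM. The compartments overlapped in both genotypes. The log2 fold change of 2.23 ± 1.21 in WT did not pass (edgeR FDR 0.159). In the libraries labelled KO, 3.78 ± 1.37 passed (edgeR FDR 0.0472), and the call was lost in 9 of 18 alternatives, with the highest FDR 0.108 without growth cone 7 labelled KO. In 8 of the 9 alternatives 1 library was left out, namely growth cone 7, 8, 9 or 10 or soma 15, 22, 25 or 26. For Mki67, 7 of the 8 left out 1 library, namely growth cone 7, 8 or 9 or soma 15, 22, 25 or 26.

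**Figure D2:**
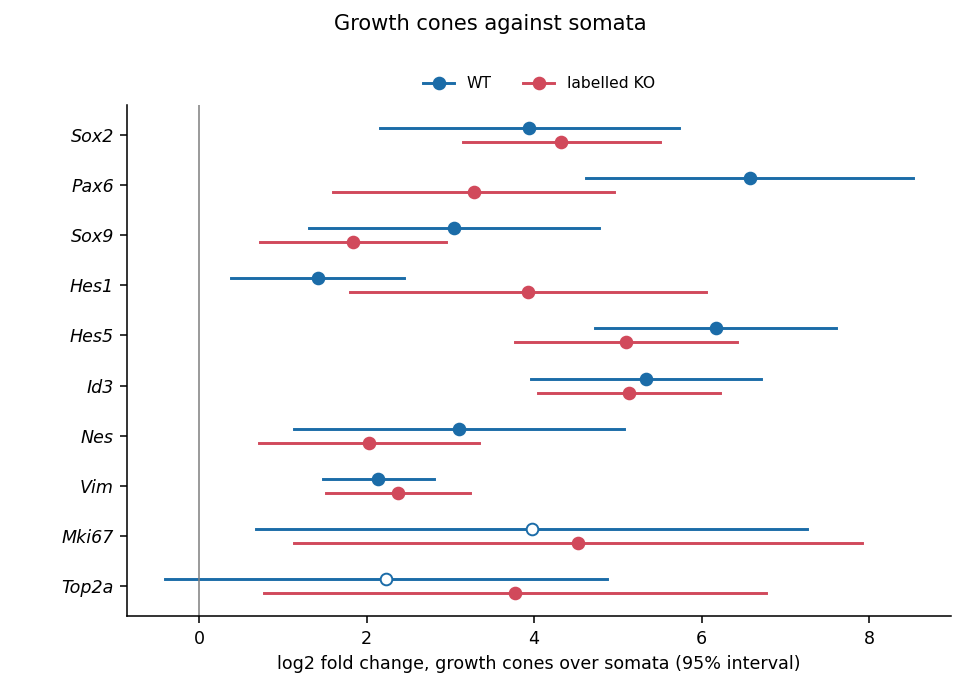
Log2 fold change of growth cones over somata for each transcript, with 95% intervals, in WT and in libraries labelled KO. Filled points passed FDR 0.05 and open points did not. All 20 estimates are above 0, and the Mki67 and Top2a intervals are the widest, with the WT Top2a interval reaching -0.41.

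Genes with known roles beside the members were read from lists of related function. Of 19 other radial glia and ventricular zone genes tested in WT, 13 were higher in growth cones and 1 was lower, with a median log2 fold change of 2.74. That is 68.4% higher, against 23.1% of all genes tested. In the libraries labelled KO 13 of 18 (72.2%) were higher and 1 was lower, against 21.6% higher over all genes. The lowest p-values in WT belonged to Dbi (3.36 ± 0.24), Fabp7 (4.57 ± 0.44), Aldoc (3.43 ± 0.36) and Hopx (5.65 ± 0.70), each as log2 fold change ± SE and each past FDR 0.05 by edgeR. Fabp7, the fatty acid binding protein of radial glia and young astrocytes, had 1042 to 1606 CPM in WT growth cones and 14.2 to 80.3 CPM in WT somata. Intermediate progenitor genes, which mark the dividing daughters of radial glia, were split. Of 5 tested in WT, 2 were higher (Gadd45g and Insm1), and of 6 tested in the libraries labelled KO, 1 was higher (Gadd45g) and 1 lower (Hes6). That is 40% higher in WT, against 23.1% of all genes tested. In the libraries labelled KO it is 16.7% each way, against 21.6% higher and 17.0% lower over all genes. Eomes, the defining factor of these cells, ranged from 0.0341 to 16.5 CPM in WT growth cones and from 0 to 1.87 CPM in WT somata, and Neurog1 had 0 counts in all 20 libraries. Eomes is named for its known role and was chosen after its values were seen.

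Other genes of the Notch pathway went both ways. Of 18 further pathway genes tested in WT, 5 were higher in growth cones, 1 was lower and 12 did not pass, with a median log2 fold change of 1.28. The share called higher, 27.8%, was near the 23.1% of all genes tested. Those with the lowest p-values were the ligand gene Dll3 (2.49 ± 0.44), the coactivator gene Maml1 (5.20 ± 1.17), the Notch target Nrarp (4.40 ± 1.05) and the receptor gene Notch3 (3.79 ± 1.19). In the libraries labelled KO, 2 were higher, 3 were lower and 13 did not pass, or 11.1% higher against 21.6% of all genes. The higher genes were Dll3 (1.87 ± 0.36) and Nrarp (2.92 ± 0.80), and the Notch antagonist genes Numb (-5.63 ± 0.92) and Numbl (-0.996 ± 0.23) were among the lower. Of 15 BMP and Id genes, 4 were higher and 3 lower in WT, and 5 were higher and 3 lower in the libraries labelled KO. In WT that is 26.7% higher and 20% lower, near the 23.1% and 19.7% of all genes tested. In the libraries labelled KO it is 33.3% higher and 20% lower, against 21.6% and 17.0% of all genes tested. Other Id genes went both ways. In WT, Id1 (5.19 ± 0.40) and Id4 (3.37 ± 0.31) were higher in growth cones, and Id2 (-0.77 ± 0.15) was lower, as was the shared signal transducer gene Smad4 (-1.78 ± 0.38). Id2 was abundant in somata, at 756 ± 127 CPM in WT.

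Of 23 further proliferation genes tested in WT, 5 were higher in growth cones, 2 were lower and 16 did not pass. The share called higher, 21.7%, was near the 23.1% of all genes tested, so the list did not stand apart by this count. Ube2c, a mitotic ubiquitin-conjugating enzyme gene, was higher (4.36 ± 0.47), as were Hmgb2 (2.31 ± 0.33) and Birc5 (4.07 ± 0.72), while Rrm2, a ribonucleotide reductase gene, was lower (-2.15 ± 0.48). In the libraries labelled KO the counts were 5 higher, 2 lower and 18 not passing, of 25 tested (20% higher, against 21.6% of all genes). The summed level of this list was 314 to 446.5 CPM in WT growth cones and 234 to 295 CPM in WT somata. Among 9 other intermediate filament genes in WT, 2 were higher (Prph, 2.23 ± 0.35, and Gfap, 2.72 ± 0.97) and 1 was lower (Lmnb1, -2.20 ± 0.50). The share called higher, 22.2%, was near the 23.1% of all genes tested.

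Several marker lists of other cell types were also higher in growth cone libraries, though not that of microglia, and their part in the members' differences was not tested. Of 12 astrocyte genes, 11 (91.7%) were higher in WT growth cones and 0 lower, against 23.1% higher over all genes tested. Their summed level was 1351 to 1840 CPM against 31.2 to 335 CPM in WT somata. Of 11 tested in the libraries labelled KO, 9 (81.8%) were higher, against 21.6% of all genes tested. Of 12 oligodendrocyte lineage genes, 8 (66.7%) were higher in WT, with sums of 624 to 2438 CPM against 63.9 to 123.5 CPM, led in level by Mbp. Of 10 meninges and fibroblast genes, 9 (90%) were higher in each genotype, with WT sums of 522 to 715.5 CPM against 2.18 to 28.04 CPM, led by Ptgds. In WT somata 7 of the 10 averaged under 1 CPM. Only 5 of the 10 passed the filter on low counts among soma libraries alone. The others entered the compartment tests through their growth cone counts, so their calls are weak support. Choroid plexus and ependyma genes summed to 313 to 451.5 CPM in WT growth cones and 0.176 to 3.34 CPM in WT somata. Most of that was Ttr, at 256 to 390.2 CPM against 0.105 to 0.544 CPM. Within this list Tmem212 had 0 counts in every growth cone library, and Kl and Otx2 had 0 in every WT soma library. Vessel and mural genes summed to 80.8 to 229 CPM in WT growth cones and 18.6 to 46.9 CPM in WT somata, where Kcnj8 had 0 counts in all libraries. Microglia genes overlapped between compartments, at 78.8 to 115 CPM against 40.25 to 162 CPM in WT, with 2 of 10 higher, 1 lower and 7 not passing. The share called higher, 20%, was near the 23.1% of all genes tested. Schwann and peripheral glia genes summed to 131 to 182 CPM against 0.453 to 15.2 CPM. The sum of 10 pan-neuronal genes was lower in WT growth cones, 6685 to 8604 CPM against 11060 to 13630 CPM in WT somata. Of these genes 4 were lower, 1 was higher (Elavl3, 0.88 ± 0.23 on the log2 scale) and 5 did not pass. Elavl3 was named after its value was seen. Aldoc, Fgfr3 and Slc1a3 stand in both the radial glia and the astrocyte list.

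**Figure D3:**
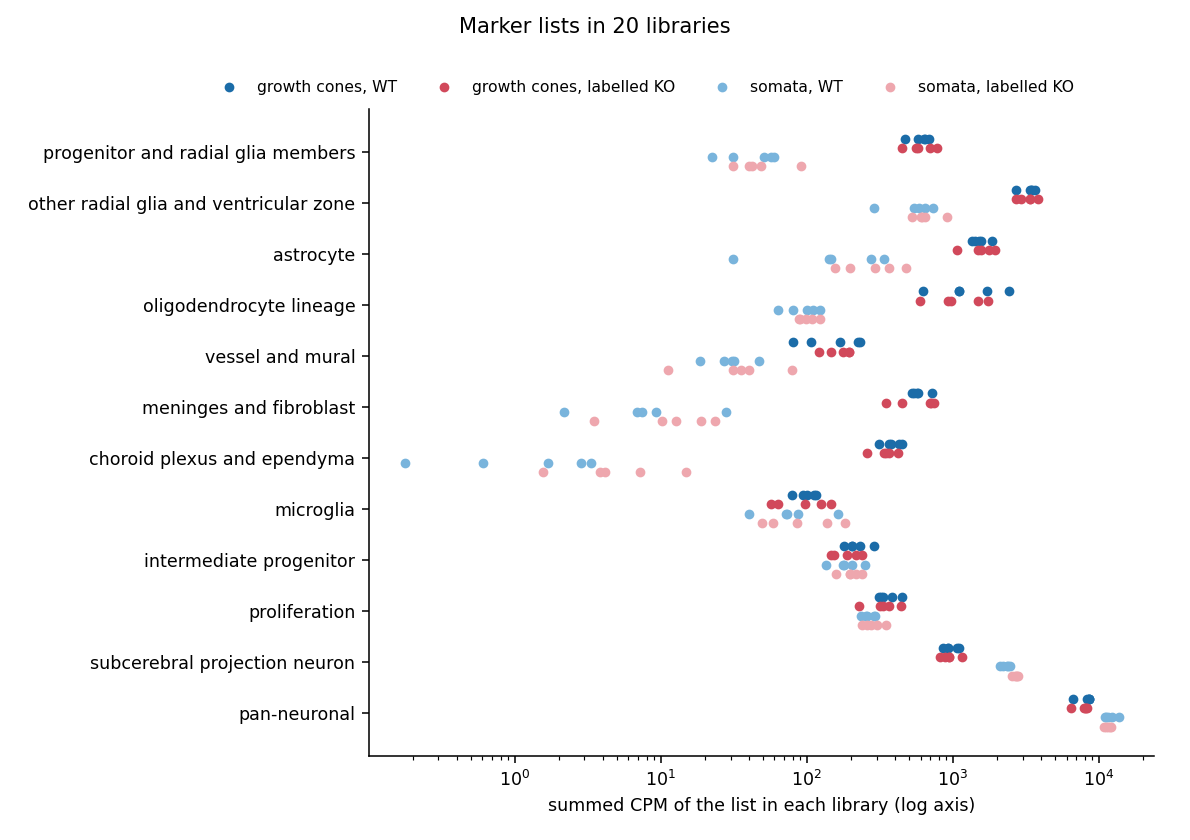
Summed CPM of the 10 members and of 11 marker lists in each of 20 libraries, on a log axis, with 1 point per library, coloured by group. The members, other radial glia, astrocyte, oligodendrocyte, vessel, meninges and choroid plexus sums are higher in every growth cone library than in any soma library, while the subcerebral projection neuron and pan-neuronal sums are lower in every growth cone library.

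Between genotypes, 0 of the 10 transcripts passed in either compartment. In growth cones 0 of 10 were called, where 0.0% of all 15419 genes tested were called by edgeR. At an unadjusted p under 0.05 the count over all genes was 329, or 2.13%, and DESeq2 called 11 genes. None of the 10 reached an unadjusted p under 0.05. The lowest was that of Sox2, at 45.8 ± 6.57 CPM in WT and 62.5 ± 11.4 CPM in the libraries labelled KO, with a log2 fold change of 0.47 ± 0.23 (edgeR FDR 0.999) and a 95% interval from -0.03 to 0.98. The interval was narrowest for Id3, from -0.35 to 0.53, and wide for Mki67, from -2.44 to 1.85. For Hes5 it ran from -1.11 to 0.39, for Sox9 from -0.70 to 0.64 and for Vim from -0.53 to 0.80. A log2 change of 1 in either direction lay outside the interval for Sox2, Sox9, Id3 and Vim. For the other 6 members the interval reached past 1 in at least 1 direction.

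In somata 0 of 9 tested members passed, where 0.731% of 14911 genes tested did. Mki67 did not pass the filter on low counts. At an unadjusted p under 0.05 the count was 2 of 9, against 8.57% of all genes tested. Pax6 averaged 0.249 ± 0.229 CPM in WT somata, against 1.67 ± 1.40 CPM in those labelled KO. Its log2 fold change was 2.73 ± 0.84 (edgeR FDR 0.256, 95% interval 0.89 to 4.57), and the groups overlapped, since WT soma 12 lay above soma 14 labelled KO. Pax6 passed the filter through the libraries labelled KO, and 3 of 5 WT libraries had 3 counts or fewer, so its interval is weak support. Hes1 averaged 4.64 ± 1.46 CPM in WT somata, against 1.21 ± 1.14 CPM in those labelled KO. All 5 WT libraries, at 3.25 to 6.95 CPM, were above all 5 libraries labelled KO, at 0.0257 to 2.52 CPM. The log2 fold change was -1.94 ± 0.86 (edgeR FDR 0.550, 95% interval -3.82 to -0.07). Groups that did not overlap, with lower values in the libraries labelled KO, were found for 1.27% of all genes tested. Vim had the narrowest interval, from -0.82 to 0.66, and Sox2, Sox9, Hes5, Id3, Nes and Top2a had intervals that spanned 0 and reached past a log2 change of 1 in at least 1 direction. Of the related lists, 0 genes passed in either genotype comparison, but 6 of 10 subcerebral projection neuron genes did in somata (4 higher and 2 lower in those labelled KO). Bcl11b itself is among the higher genes.

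**Figure D4:**
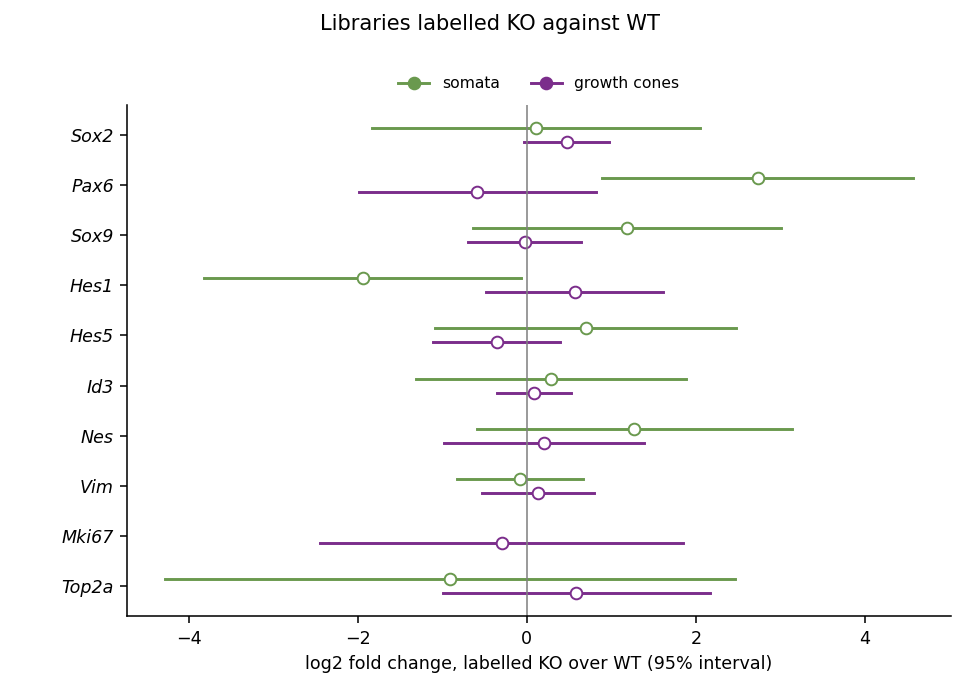
Log2 fold change of libraries labelled KO over WT for each transcript, with 95% intervals, in somata and in growth cones. All points are open because 0 passed FDR 0.05. The soma intervals of Pax6 (above 0) and Hes1 (below 0) exclude 0 before adjustment, and Mki67 has no soma value because it was not tested there.

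Whether the compartment difference itself depended on genotype was asked with an interaction term in a fit of the 20 libraries. It passed for 0 of 10 members, against 0.0397% of 17645 genes tested (7 genes). The 2 members with an unadjusted p under 0.05 were Pax6, with an interaction of -3.34 ± 1.04 on the log2 scale (edgeR FDR 0.410), and Hes1, with 2.48 ± 0.98 (edgeR FDR 0.565). For Pax6 the growth cone excess was smaller in the libraries labelled KO, and for Hes1 it was larger. Over all genes tested, 6.98% had an unadjusted p under 0.05. Mki67 and Top2a passed the compartment test in the libraries labelled KO and not in WT, but their interactions, 0.52 ± 1.9996 and 1.52 ± 1.80, did not pass (edgeR FDR 1 for each).

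Levels were also divided by counted gene length, which takes in all annotated exons of a gene and may exceed the transcript present. The order of genes therefore depends on the annotation too and compares them only roughly. Per kilobase of that length, the order in WT growth cones was Id3 (120.5 ± 20.1 CPM per kb), Hes5 (82.4 ± 22), Sox2 (22.3 ± 3.19), Vim (20.5 ± 6.07), Sox9 (10.6 ± 2.81), Hes1 (6.69 ± 1.62), Nes (2.67 ± 1.63), Pax6 (2.32 ± 1.57), Top2a (1.65 ± 1.07) and Mki67 (1.18 ± 0.976). In growth cones labelled KO the order was the same except that Top2a stood before Pax6. In both genotypes the ranges of neighbours overlapped except between Hes5 and Sox2. In somata Vim came first, at 4.23 ± 1.28 CPM per kb in WT and 4.04 ± 1.90 in those labelled KO, followed by Id3 at 2.71 ± 1.66 and 3.35 ± 2.61. All neighbours in somata overlapped. Hes1 followed in WT somata, at 2.28 ± 0.714 CPM per kb, and Mki67 and Pax6 held the last places in both soma groups.

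The spread between libraries of a group also differed between the genes. In growth cones the coefficient of variation (CV, SD over mean) was 14.3% and 18.3% for Sox2, and 16.7% and 28.99% for Id3, in WT and in the libraries labelled KO. It was 82.4% and 87.3% for Mki67 and 67.8% and 62.5% for Pax6. In somata the CV of Vim was 30.2% and 46.99%, and that of Sox2 was 138% and 89.9%. The same soma libraries stood at the ends for many members. WT soma 12 was the lowest of its group for 7 of 10 members, and soma 25 labelled KO was the highest of its group for 7 of 10. In summed level WT soma 12 had 22.4 CPM and soma 25 labelled KO had 91.7 CPM.

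The members did not vary as 1 block from library to library. Over the 10 growth cone libraries, correlations of log2 level between members were positive in 22 of 45 pairs, with a median Pearson r of -0.002. The highest were 0.69 for Sox2 with Hes1 and 0.68 for Vim with Top2a, and the lowest was -0.79 for Nes with Mki67. Over the 10 soma libraries 32 of 45 pairs were positive, with a median r of 0.19 and a maximum of 0.87 for Sox9 with Id3. These are descriptions over libraries of both genotypes, and all pairs share the same libraries and their depth.

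In somata several members followed the summed level of the astrocyte list, a relation examined after the data were seen. Over 10 soma libraries Pearson r was 0.89 for Sox9 (permutation p = 0.0028, adjusted over 20 relations 0.056), with Spearman rho 0.73 (permutation p = 0.0209, adjusted 0.179). For Id3 r was 0.84 (permutation p = 0.00855, adjusted 0.0855), with rho 0.47 (permutation p = 0.181, adjusted 0.542). For Hes5 r was 0.78 (permutation p = 0.0136, adjusted 0.0907) with rho 0.71 (permutation p = 0.0269, adjusted 0.179), and for Sox2 r was 0.72 (permutation p = 0.0184, adjusted 0.092) with rho 0.75 (permutation p = 0.0184, adjusted 0.179). For Nes r was 0.71 (permutation p = 0.028, adjusted 0.112) with rho 0.42 (permutation p = 0.23, adjusted 0.542). For Hes1 r was -0.40 (permutation p = 0.252, adjusted 0.522) with rho -0.45 (permutation p = 0.19, adjusted 0.542). None of the 20 relations passed after adjustment. The permutations shuffled the 10 libraries freely, across both genotypes and across shared experiment numbers, so these p-values may be too small. The relation rested on WT soma 12, the library lowest in the astrocyte list (31.2 CPM), and soma 25 labelled KO, the highest (474 CPM). Without them r was 0.51 for Sox9, 0.20 for Id3, 0.40 for Hes5, 0.46 for Sox2 and -0.12 for Nes. Within 1 genotype only 5 libraries remain, too few for a correlation. In growth cones the 10 values of r lay between -0.39 and 0.48. Other lists gave similar values in somata, as a description without a test. With the other radial glia list r was 0.90 for Id3, 0.87 for Sox9, 0.80 for Hes5 and 0.79 for Sox2. With the oligodendrocyte list it was 0.82 for Id3 and 0.75 for Hes5, and with the pan-neuronal list it was -0.86 for Sox9 and -0.81 for Id3.

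**Figure D5:**
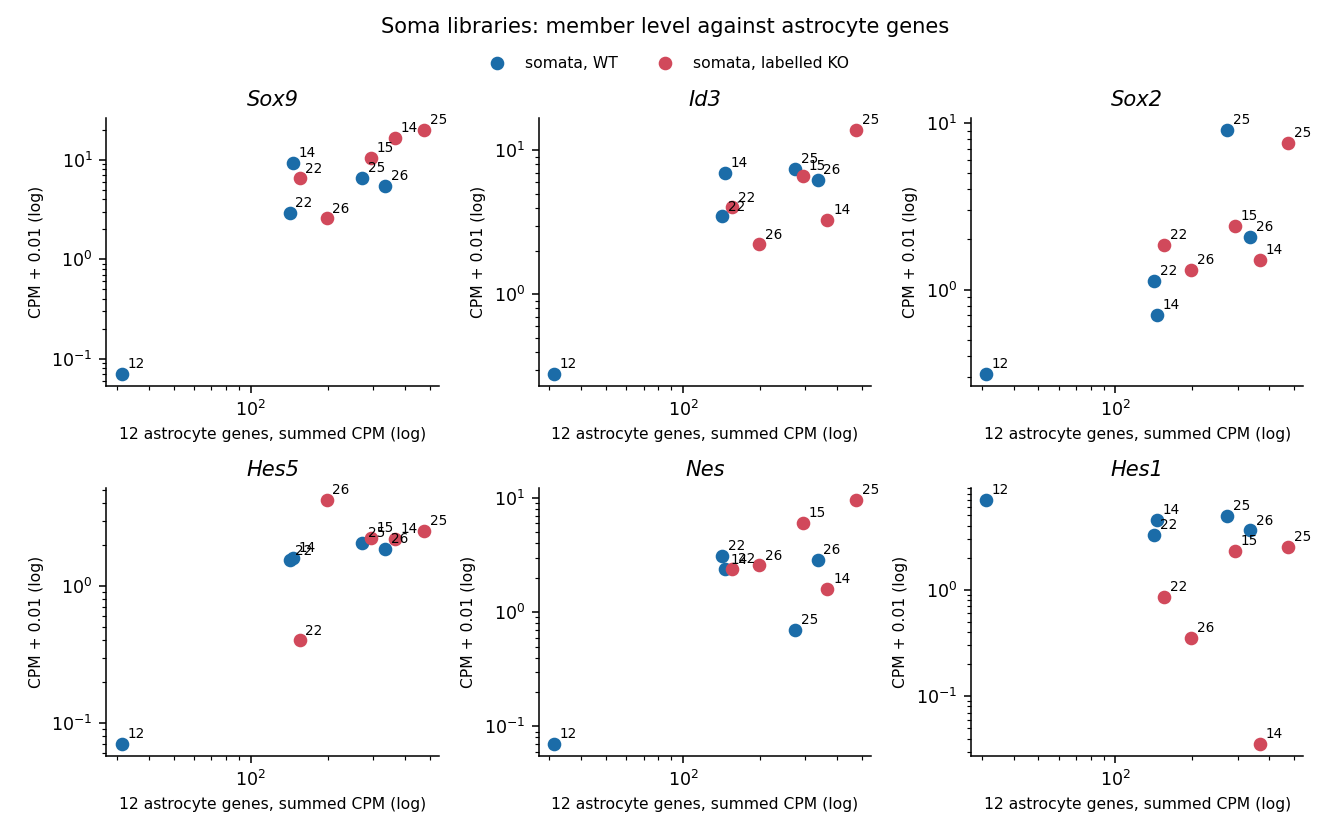
Level of 6 members against the summed level of 12 astrocyte genes in the 10 soma libraries, both as CPM on log axes (0.01 added to the member), with the experiment number beside each point. WT soma 12 lies at the lower left for Sox9, Id3, Sox2, Hes5 and Nes but is the highest of all soma libraries for Hes1.

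The genes most like each member over the 20 libraries were found by Pearson r of log2 level, among 11337 genes whose mean reached 5 CPM. For both Sox2 and Id3 they were the radial glia genes Ttyh1 (r of 0.98 and 0.97) and Fabp7 (r of 0.97 and 0.98). For Hes5 they were Aldoc and Gt(ROSA)26Sor (0.97 each), for Sox9 Qk (0.95) and Apoe (0.94), and for Vim Apod and Metrn (0.95 each). For Pax6 they were Mdp1 (0.96) and 1700008J07Rik (0.94), for Hes1 Ssbp1 and Col26a1 (0.91 each), and for Nes Fbxo2 and Gsta4 (0.88 each). For Mki67 they were Mir670hg and Lhx8 (0.88 each), and for Top2a Mxd4 (0.87) and Rbms3 (0.84). These values span both compartments, so a gene that differs strongly between them scores high. Over the 10 growth cone libraries alone the most similar genes were others in 9 of the 10 cases, with r from 0.89 to 0.96. The exception was Top2a, for which Mxd4 was again among the closest (0.94).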

How the data were processed

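RNA from somata and growth cones was made into cDNA with a SMART-seq v4 kit and into libraries with Nextera XT, per the labels' protocols. The authors deposited raw counts of reads per gene as 1 table, with no scaling between libraries, per the file headers. The submitters' processing notes name Trimmomatic 0.39, STAR 2.7.1a, featureCounts 1.5.0 and the build GRCm39. The exon coordinates in the table are those of GRCm38: 54435 of 55487 genes (98.1%) have the exon list of GENCODE M21. Coordinates are given as the table has them. Whether counting used strand, and how multi-mapped reads were handled, is not given in the sources used here. A symbol was matched to 55141 genes, 0 rows named no gene, and 0 columns were left without a sample.

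Samples were grouped by title. Replicate libraries differed by more than sampling noise (smallest chi-square per degree of freedom 56.6), so all 20 were kept. Each comparison was fitted in edgeR 4.0.16 (R 4.3.3) on the 2 groups compared, with filterByExpr (minimum count 10), TMM scaling, the quasi-likelihood F test and Benjamini-Hochberg adjustment over all genes tested, at FDR 0.05. The interaction used all 20 libraries. The fit was tested on simulated data with known changes. The simulation gave every gene the same spread and changed only the more abundant genes. It therefore does not speak for members that are scarce and variable in somata. SEs and 95% intervals come from the F statistics. Levels are CPM of the library total. Correlations used log2 of TMM-scaled CPM plus 0.5. The libraries hold no molecular identifiers, so limits set on a count of 0 cover counting error only. DESeq2 1.42.0, limma-voom (limma 3.58.1), other scalings and filters, a replicate block and leaving out each library were alternatives.

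The 10 members and all lists were chosen with earlier results of these data known. All members are described. Of each related list the rule named up to 4 genes past FDR 0.05 with the lowest p, of each cell type list the gene with the highest level, and for each member the 2 genes most like it. Not every gene the rule allows is printed. Promoter windows came from RefSeq (GRCm38.p6).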

Additional observations from a re-analysis of the deposited data

Results flagged for a closer look

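Of 40 sets of 5 libraries (10 genes in 4 groups), 4 held a library far from the other 4 by Dixon's test at the 95% level. Chance flags about 1 in 20 such sets if values follow a normal distribution, which low CPM values need not do. All 4 were in somata. Sox2 in WT soma 25 was at 9.12 CPM, with the other WT somata at 0.302 to 2.06 CPM. In soma 25 labelled KO it was at 7.57 CPM, with the others of that group at 1.31 to 2.41 CPM. Hes5 in WT soma 12 was at 0.0604 CPM, with the others at 1.52 to 2.05 CPM. Mki67 in soma 14 labelled KO was at 1.82 CPM, with the others at 0 to 0.118 CPM.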

How the results depend on the processing

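The count of members called higher in growth cones was 7 to 10 of 10 in each genotype over all alternatives run, and no call changed direction. Leaving out 1 library gave 7 to 9 in WT and 7 to 10 in the libraries labelled KO. DESeq2 gave no adjusted p for Sox2 in WT (log2 fold change 4.04) or for Pax6 between soma genotypes (2.75). Top2a in WT passed with limma-voom. In both genotype comparisons and the interaction, 0 members with an adjusted p passed under any alternative. Counts over all genes moved more. For somata labelled KO against WT somata, 109 genes were called, and 402 with DESeq2, 30 with all 20 libraries in 1 fit and 67 to 107 without 1 library (68 and 67 when experiment 22 was left out of the WT and the KO-labelled group). For growth cones the count of 0 became 11 with DESeq2 and 7 with all 20 libraries in 1 fit. The interaction count of 7 became 21 at FDR 0.10, 273 with DESeq2, and 5 to 12 without 1 library (12 and 11 when experiment 7 was left out of the WT and the KO-labelled growth cones). The cause was not tested.

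Experiment numbers shared by genotypes gave a replicate block. The block fit kept only experiments with both genotypes, so WT soma 12 and soma 15 labelled KO were left out. With it, 34 genes were called in somata, 0 in growth cones and 0 in the interaction, and 0 members in each. The soma count therefore does not show the effect of the block alone. Deviations of same-numbered libraries from their group means correlated at 0.0267 to 0.11 in 5 growth cone pairs and at 0.0114 to 0.134 in 4 soma pairs. The main tests left the pairing out, and the block was run as an alternative. That choice does not show that the libraries are unpaired. In growth cones 4 of 5 pairs, and in somata 2 of 4, were best matches. The numbers come from the titles, but what libraries of the same number have in common is not given in the sources used here. Growth cones and somata share no number. Few reads limit Mki67, Top2a and Pax6 in somata. There 2 or 3 of 5 libraries had 3 counts or fewer (0 for Pax6 in those labelled KO). For Top2a the low counts did not follow the library total. WT soma 26, with the smallest total of 18962308, had 105 Top2a counts. Soma 22 labelled KO, with the largest total of 51205154, had 3. The cause was not tested.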
